A study of Homo sapiens with 8 samples.

Results

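Cytosolic aminoacyl-tRNA synthetases join each amino acid to its own transfer RNA before translation. This account covers 10 of them: AARS1, CARS1, GARS1, IARS1, MARS1, WARS1, SARS1, NARS1, EPRS1 and TARS1. The 10 genes were chosen with earlier results of these data known. Their probe sets were taken by gene name, as every probe set annotated to them under the present or the older symbol. That gave 16 probe sets of the 22277 on the array, and 10 genes of the 12246 with a named probe set. Mitochondrial synthetases were left out. Transcript levels were measured on Affymetrix human expression arrays in 2 human acute myeloid leukemia lines. HL-60 is labelled promyelocytic and THP-1 monocytic. Each line received 100 µM diclofenac, a non-steroidal anti-inflammatory drug that inhibits cyclooxygenases, or an equal amount of its solvent DMSO for 48 h. Each of the 4 groups holds 2 arrays titled as biological replicates, in RPMI-1640 medium with 10% fetal bovine serum. The labels name no genetic change made to either line.

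The synthetases fall into class I, whose catalytic core is a Rossmann fold, and class II, whose core is built on an antiparallel sheet. EPRS1, IARS1 and MARS1 are subunits of the cytosolic multisynthetase complex, and the other members described here act largely outside it. When a tRNA stays uncharged, the kinase GCN2 (EIF2AK4) phosphorylates eIF2, and translation of the transcription factor ATF4 increases. ATF4 with a C/EBP-family partner binds an amino acid response element in genes of amino acid uptake, synthesis and tRNA charging. WARS1 is in addition a classic interferon-gamma target.

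The promoters are shown here because 7 of the 10 genes hold the core letters of that element close to the start of transcription. All 10 members matched the RefSeq promoter table (GRCh38.p14) by symbol, with 15 windows of 250 bases before to 50 bases after a start, since 5 genes have 2 listed starts. The search used TGATGNAA on both strands, so a match on the other strand reads TTNCATCA. The matching stretches follow, each read 5′ to 3′ along the gene's own strand, with the match in capitals.
TARS1: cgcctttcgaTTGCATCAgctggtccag
GARS1: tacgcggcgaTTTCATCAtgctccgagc
IARS1: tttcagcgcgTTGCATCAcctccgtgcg
CARS1: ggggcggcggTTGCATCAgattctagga
MARS1: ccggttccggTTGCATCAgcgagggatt
AARS1: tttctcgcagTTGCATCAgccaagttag
NARS1: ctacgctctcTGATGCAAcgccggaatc
The TARS1 stretch is chr5:33440957-33440984 on the plus strand, and GARS1 is at chr7:30594835-30594862 on the plus strand. IARS1 lies at chr9:92293693-92293720 and CARS1 at chr11:3057408-3057435, both on the minus strand. MARS1 is at chr12:57488054-57488081 on the plus strand. AARS1 is at chr16:70289676-70289703 and NARS1 at chr18:57621805-57621832, both on the minus strand. Counted with the start of transcription as +1, the matches begin at 3 in TARS1, 15 in NARS1, -2 in CARS1, -4 in MARS1, -13 in IARS1, -33 in GARS1 and -187 in AARS1. Thus 6 of the 7 matches begin within 33 bases of the start, and NARS1 alone carries the match on the gene's own strand. Windows of the same length held this match in 4.46% of 27305 genes, 0 of the 6 other cytosolic synthetases in the table, 1 of 14 mitochondrial synthetases and 3 of 17 genes of the integrated stress response list. WARS1, SARS1 and EPRS1 had no match in their windows. A match is a run of letters and not a measured binding site.

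WARS1 is shown apart, because its windows held letters of interferon-responsive elements.
WARS1, response element: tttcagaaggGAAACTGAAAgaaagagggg
WARS1, activation site: gctcaagtgtTTCTGAGAAtctgggtgat
These lie at chr14:100375383-100375412 and chr14:100375471-100375499 on the minus strand, and the matches begin at -55 and -142 of the same start. The first is the interferon-stimulated response element, searched on both strands as 2 copies of GAAA with NN between them and added after the sequences had been read. It occurred in WARS1 alone among the 10 members and in 4.38% of all genes. The second is the gamma interferon activation site, searched as TTCNNNGAA, which reads the same on both strands. That motif occurred in TARS1, CARS1 and WARS1 and in 9.38% of all genes.

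All arrays had been scaled to the same trimmed mean by the authors, and 7 of the 8 were nearer to each other in background. The second DMSO array of THP-1 stood apart. Its background, the 95th percentile of the bacterial control probe sets, was 239 against 33.2 to 60.2 on the other arrays, and 50.3% of its probe sets lay above background against 66.4% to 72.1%. Most results on THP-1 are therefore given with and without it. Among the other 7, the first DMSO array of HL-60 had the highest background, 60.2. Its bacterial controls had a median of 24.6 against 5.6 to 8.7 on the rest, and its median intensity was 150.2 against 109.6 to 123.3. The 2 lines had nearly the same number of lineage markers above background, though the levels of some differed. Primary granule markers were above background on every array for 5 of 6 genes in each line. Monocyte markers were above background on every array for 2 of 6 genes in HL-60 and 3 of 6 in THP-1. AZU1, a primary granule gene, read 1177.8 to 1622.3 in HL-60 and 7212.9 to 9350.6 in THP-1. The other primary granule genes did not all follow it. PRTN3 and MPO were also higher in THP-1, with MPO at 40.6 to 61.2 in HL-60 and 170.6 to 235.6 in THP-1. MPO lay below background on both DMSO arrays of HL-60 and on the THP-1 array that stood apart. ELANE and MS4A3 overlapped between the lines, and CTSG read 11412.3 to 14181.8 in HL-60 and 7769.1 to 13192.1 in THP-1. T cell, B cell, erythroid, epithelial and fibroblast markers were low, and their summed intensities were highest on the array that stood apart. All 10 member genes lay above background on all 8 arrays through the probe set that represents each in what follows, the brightest one annotated to that gene alone. For MARS1 all probe sets carry a second name, and the one assigned by accession was used although another was brighter. Intensities below are as deposited. Changes and statements on overlap are on the log2(intensity + 50) scale after quantile normalization. A p-value here measures the spread between 2 arrays per group, and fewer cells of a kind and less RNA per cell cannot be told apart in such bulk RNA.

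In HL-60, every one of the 10 synthetases had a higher mean with diclofenac than with DMSO, with a median difference of 0.37 on the log2 scale against 0.00 over all genes, of which 50.3% were higher. The differences ran from 0.18 for EPRS1 to 0.70 for WARS1, 1.13-fold to 1.62-fold. None passed the test across the whole array (limma, Benjamini-Hochberg adjusted p under 0.05), a threshold that 0.00817% of genes passed upward. At an unadjusted p under 0.05, 7 of 10 were higher, where 2.52% of all genes were and 6.65% of the 2767 genes at least as bright as the dimmest member. In 9 of 10 both diclofenac arrays lay above both DMSO arrays, as they did for 21.1% of all genes, and TARS1 was the exception. Without the THP-1 array that stood apart, which enters the shared estimate of spread, the HL-60 differences were the same and all 10 met the unadjusted threshold beside 5.82% of genes, with none called after adjustment.

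In THP-1, 9 of the 10 means were higher with diclofenac, as were 48.4% of all genes, with a median of 0.24. None passed the adjusted threshold, which 0.155% of genes passed upward. At an unadjusted p under 0.05, 3 of 10 were higher, beside 6.21% of all genes and 11.7% of the 2767 bright genes. Both diclofenac arrays lay above both DMSO arrays for GARS1, MARS1, WARS1, SARS1 and EPRS1, 5 of 10 against 19.4% of all genes. The same 5 were apart in HL-60, and 4.61% of all genes were apart upward in both lines. Without the array that stood apart, 8 of 10 differences were above 0 beside 49% of genes, the median was 0.13, and 2 met the unadjusted threshold beside 5.85% of genes. The scaling also moved the size. On the deposited scale without quantile normalization the members' medians were 0.42 in HL-60 and 0.36 in THP-1 where those of all genes were -0.05 and -0.16, and all 10 were above 0 in both lines. With median centring they were 0.58 and 0.71, where all genes were at 0.11 and 0.20 and the 2767 bright genes at 0.20 and 0.46, again with all 10 above 0.

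**Figure D1:**
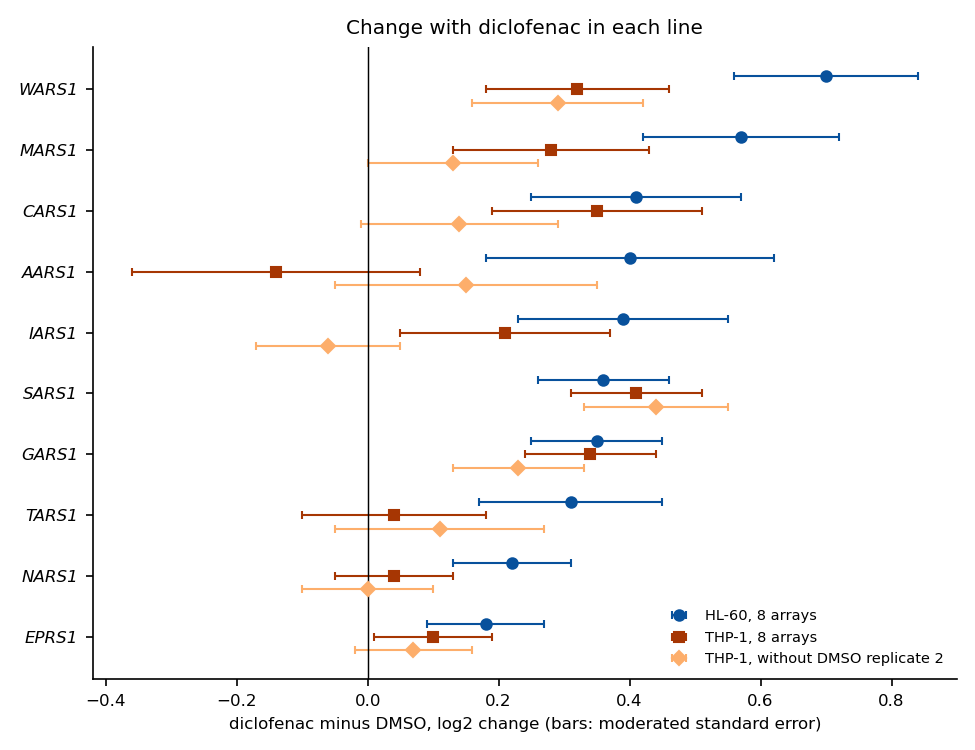
Difference between diclofenac and DMSO (log2 scale, horizontal axis) for each of the 10 synthetases in HL-60 (circles), in THP-1 (squares) and in THP-1 without DMSO replicate 2 (diamonds), with bars of 1 moderated standard error from limma. All HL-60 points lie to the right of 0, from 0.18 to 0.70, while the THP-1 points run from -0.14 to 0.41 and IARS1 moves from 0.21 to -0.06 when the array is left out.

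Among the members that are subunits of the multisynthetase complex, MARS1, the methionyl enzyme that also charges the initiator tRNA, differed most between treatments. In HL-60 it read 739.5 and 871.5 with DMSO and 1186.2 and 1253.7 with diclofenac. In THP-1 it read 1604.6 and 1157.5 with DMSO and 1656 and 1857.2 with diclofenac. The treatments did not overlap in either line. The difference in HL-60 was 0.57 ± 0.15 (SE; 1.48-fold, limma adjusted p = 0.69). In THP-1 it was 0.28 ± 0.15, and 0.13 without the array that stood apart. This probe set, 201475_x_at, may cross-hybridise by its design class, and it was assigned through its accession because the annotation also names MIR6758, a microRNA within MARS1. A brighter probe set that carries both names, 213671_s_at, read 848.4 and 906.4 with DMSO and 1289.4 and 1567.7 with diclofenac in HL-60. Its difference of 0.65 ± 0.14 there was close to that of the representative. The last one, 213672_at, was above background on 2 of 8 arrays.

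IARS1, the isoleucyl enzyme, read 3992.8 and 4975.6 with DMSO and 5818.9 and 6835.2 with diclofenac in HL-60. The THP-1 arrays gave 5361.4 and 2784.3 with DMSO and 4843.6 and 5161.5 with diclofenac. The HL-60 groups were apart and the THP-1 groups overlapped, with the second DMSO array below the other 3. Differences were 0.39 ± 0.16 in HL-60 and 0.21 ± 0.16 in THP-1, the latter becoming -0.06 without that array. EPRS1, a fusion of the glutamyl and prolyl enzymes, had the smallest HL-60 difference of the 10. It read 2703.2 and 2935.7 with DMSO and 3404.8 and 3135.1 with diclofenac in HL-60. In THP-1 the values were 3184.2 and 2368.4 with DMSO and 3372.2 and 3184.9 with diclofenac. Its differences were 0.18 ± 0.09 and 0.10 ± 0.09, and its normalized groups did not overlap in either line, narrowly so in THP-1.

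Among class I enzymes outside the complex, WARS1, which charges tryptophan, showed the largest difference in HL-60. It read 369.6 and 363.4 with DMSO and 586.8 and 631.7 with diclofenac. In THP-1 it read 1058.3 and 950.3 with DMSO and 1343.5 and 1278.1 with diclofenac. Replicates lay close together and no treatment groups overlapped. The HL-60 difference was 0.70 ± 0.14 (SE; 1.62-fold, 95% interval 0.38 to 1.02, limma adjusted p = 0.56). The THP-1 difference was 0.32 ± 0.14, and 0.29 without the array that stood apart. The second WARS1 probe set, 200628_s_at, read 230.7 and 206.4 with DMSO and 341.2 and 487.5 with diclofenac in HL-60. In THP-1 its DMSO arrays gave 479.2 and 154.7 and its diclofenac arrays 681.4 and 664. Its THP-1 difference of 1.45 ± 0.57 rested on the low second DMSO array and was 0.38 without it.

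CARS1, the cysteinyl enzyme, read 2745.8 and 2732.6 with DMSO and 3966.9 and 3525.8 with diclofenac in HL-60. The THP-1 arrays gave 2055 and 1291.4 with DMSO and 1979.8 and 2521.2 with diclofenac. The HL-60 groups were apart, and the THP-1 groups overlapped. The differences were 0.41 ± 0.16 in HL-60 and 0.35 ± 0.16 in THP-1, the latter 0.14 without the array that stood apart. Its other probe set, 202402_s_at, gave 0.21 ± 0.45 and 0.72 ± 0.45, the latter -0.04 without that array.

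Of the class II enzymes, SARS1 and GARS1 had differences of like size in both lines. SARS1, which charges serine and also the selenocysteine tRNA, read 873.7 and 758.3 with DMSO and 1074 and 1055 with diclofenac in HL-60. In THP-1 it read 3728.8 and 2997.3 with DMSO and 4760.9 and 5260.7 with diclofenac. All diclofenac values lay above the DMSO values of the same line. The differences were 0.36 ± 0.10 in HL-60 and 0.41 ± 0.10 in THP-1 (limma adjusted p = 0.78 and 0.28), and the THP-1 value was 0.44 without the array that stood apart. GARS1, the glycyl enzyme of cytosol and mitochondria, read 3530.7 and 3584.7 with DMSO and 4405.2 and 5175 with diclofenac in HL-60. THP-1 values were 3153.9 and 2130.6 with DMSO and 3549.6 and 3703.5 with diclofenac. Its differences were 0.35 ± 0.10 and 0.34 ± 0.10, the latter 0.23 without the array that stood apart, and its groups did not overlap in either line.

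The remaining 3 class II enzymes had higher means with diclofenac in HL-60 and differences near or below 0 in THP-1. AARS1, the alanyl enzyme, read 1266.6 and 914.1 with DMSO and 1457.9 and 1460.5 with diclofenac in HL-60, a difference of 0.40 ± 0.22. THP-1 values were 1506.2 and 1894.5 with DMSO and 1527 and 1876.9 with diclofenac, and the difference was -0.14 ± 0.22. The THP-1 groups overlapped throughout, and the sign turned without the array that stood apart (0.15) and with median centring (0.36). NARS1, the asparaginyl enzyme, read 5997.3 and 7189.4 with DMSO and 7996.5 and 8328.6 with diclofenac in HL-60, and 4426.9 and 3193.5 against 4141.5 and 4527.4 in THP-1. Its differences were 0.22 ± 0.09 and 0.04 ± 0.09. TARS1, the threonyl enzyme, read 1642.5 and 2142 with DMSO and 2131.5 and 2655.8 with diclofenac in HL-60, and 3327.5 and 2757.2 against 3456.1 and 3483.2 in THP-1. Its groups overlapped in both lines, with differences of 0.31 ± 0.14 and 0.04 ± 0.14.

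**Figure D2:**
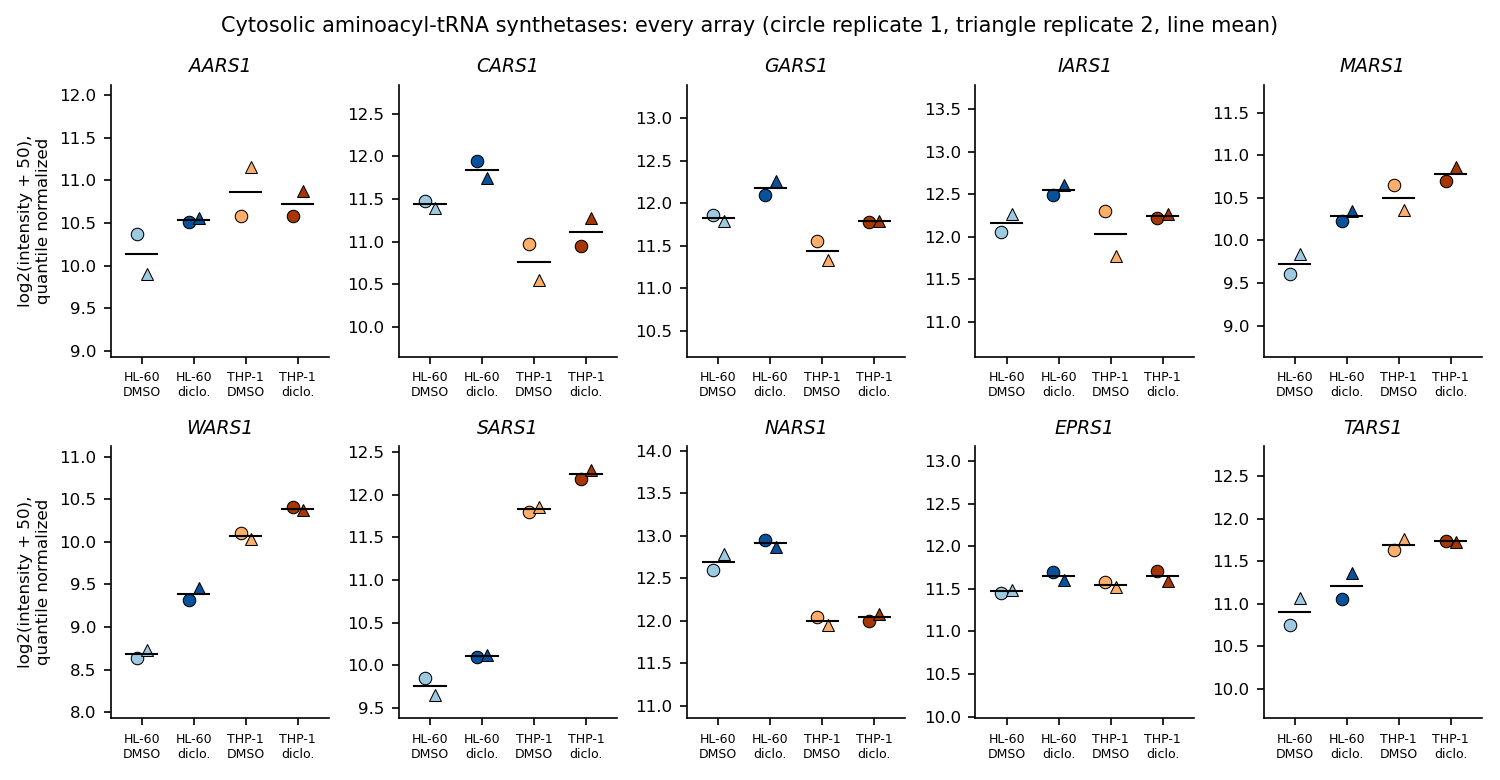
Every array's value for the representative probe set of each synthetase, as log2(intensity + 50) after quantile normalization, by line and treatment (diclo., diclofenac), with replicate 1 as circles, replicate 2 as triangles and the group mean as a line; each panel spans the same range. WARS1 and SARS1 show well separated groups, with SARS1 2.08 higher in THP-1 than in HL-60 with DMSO, whereas the AARS1 arrays of THP-1 interleave.

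By class, the HL-60 differences ran from 0.39 to 0.70 for the 4 class I enzymes and from 0.22 to 0.40 for the 5 class II enzymes, with EPRS1, which holds a catalytic part of each class, at 0.18. In THP-1 the ranges by class were 0.21 to 0.35 and -0.14 to 0.41, or -0.06 to 0.29 and 0 to 0.44 without the array that stood apart. The 3 complex subunits among the members ran from 0.18 to 0.57 in HL-60 and the 7 other members from 0.22 to 0.70, so the ranges overlapped. The 7 genes with the response element core shown above ran from 0.22 to 0.57 in HL-60, and the 3 without it from 0.18 to 0.70. The ranges overlapped, with both the lowest and the highest value among the 3 without it. In THP-1 the corresponding ranges were -0.14 to 0.35 and 0.10 to 0.41, or -0.06 to 0.23 and 0.07 to 0.44 without the array that stood apart.

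Averaged over both lines, all 10 differences were above 0 with a median of 0.32, beside 49.2% of all genes. None passed the adjusted threshold in limma, which 0.122% of genes passed upward. The unadjusted one was met by 7 members, beside 4.47% of genes and 9.47% of the 2767 bright genes. The smallest limma adjusted p-values were those of SARS1, 0.38 ± 0.07 with an adjusted p of 0.22, and WARS1, 0.51 ± 0.10 with an adjusted p of 0.22. GARS1 followed at 0.35 ± 0.07 (limma adjusted p = 0.27) and MARS1 at 0.42 ± 0.11 (limma adjusted p = 0.40). Leaving out the array that stood apart gave a median of 0.27, with all 10 still above 0. SARS1 was then at 0.4, WARS1 at 0.49, GARS1 at 0.29 and MARS1 at 0.35. Whether the treatment effect differed between the lines was tested as the THP-1 difference minus the HL-60 difference. The estimate was below 0 for 9 of 10 members and 51.4% of all genes, with a members' median of -0.18. That count depended on the scaling. With median centring the sign turned for CARS1, GARS1, IARS1, NARS1, EPRS1 and TARS1, and on the deposited scale for CARS1, GARS1 and EPRS1. In limma 0 members passed either the adjusted threshold, passed downward by 0% of genes, or the unadjusted one, passed downward by 3.53%. The interval was wide, from -0.83 to 0.08 for WARS1 and from -1.24 to 0.16 for AARS1, so neither a like nor an unlike response of the lines was shown. Without the array that stood apart, IARS1, MARS1 and WARS1 met the unadjusted threshold at -0.44, -0.44 and -0.41, beside 5.24% of genes, and none met the adjusted one.

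More members differed between the lines than between the treatments. With DMSO, 4 members were higher in THP-1 and 3 lower at an adjusted p under 0.05, beside 9.32% and 9.3% of all genes. Of the 2767 genes at least as bright as the dimmest member, 22.3% and 22.4% were. SARS1 was 4.23-fold higher in THP-1, a log2 difference of 2.08 ± 0.10 (limma adjusted p = 8.5e-06). WARS1 was 2.61-fold higher at 1.38 ± 0.14 (limma adjusted p = 3e-04). Its second probe set, 200628_s_at, did not show this on all 8 arrays, at 0 ± 0.57, and gave 1.07 without the array that stood apart. TARS1 and MARS1 were each 1.72-fold higher, with limma adjusted p-values of 0.0054 and 0.0084. NARS1 was 1.61-fold lower in THP-1, a log2 difference of -0.69 ± 0.09 (limma adjusted p = 0.00099). CARS1 was lower by -0.68 ± 0.16 and GARS1 by -0.38 ± 0.10, with limma adjusted p-values of 0.023 and 0.038. These last 2 calls were lost without the array that stood apart, at -0.47 (limma adjusted p = 0.065) and -0.27 (limma adjusted p = 0.10), which left 4 higher and 1 lower beside 11.5% and 10.9% of genes. AARS1 at 0.73 ± 0.22 (limma adjusted p = 0.056), EPRS1 at 0.08 and IARS1 at -0.12 were not called. The second CARS1 probe set, 202402_s_at, was not called either, at -0.78 ± 0.45 (limma adjusted p = 0.31), and gave -0.01 without the array that stood apart. The MARS1 probe set 213671_s_at was called, at 0.96 ± 0.14 (limma adjusted p = 0.0018).

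With diclofenac the 10 line differences stood in the same order as with DMSO, in arrays that the DMSO comparison did not use. Without the array that stood apart the DMSO order differed, with MARS1 (0.94) above TARS1 (0.72) and IARS1 (0.14) above EPRS1 (0.11). SARS1 was 4.4-fold higher in THP-1, at 2.14 ± 0.10 (limma adjusted p = 7.6e-06), WARS1 2.01-fold higher at 1.01 ± 0.14, and TARS1 1.43-fold higher at 0.52 ± 0.14. NARS1 was lower by -0.87 ± 0.09, CARS1 by -0.74 ± 0.16 and GARS1 by -0.39 ± 0.10. That made 3 higher and 3 lower at an adjusted p under 0.05, where 8.36% and 7.63% of all genes were, and 19.9% and 20.8% of the 2767 bright genes. MARS1 at 0.49 ± 0.15 (limma adjusted p = 0.068), IARS1 at -0.30 ± 0.16, AARS1 at 0.19 and EPRS1 at 0.00 were not called through their representatives. The MARS1 probe set 213671_s_at was called, at 0.64 ± 0.14 (limma adjusted p = 0.016). The second probe sets of WARS1, 200628_s_at, and CARS1, 202402_s_at, were not called, at 0.63 ± 0.57 and -0.26 ± 0.45 (limma adjusted p = 0.65 and 0.87). Without the array that stood apart the fit called 8, with MARS1 higher and IARS1 lower added, beside 13.6% of genes higher and 13.8% lower. For SARS1, the level was ordered HL-60 with DMSO, HL-60 with diclofenac, THP-1 with DMSO and THP-1 with diclofenac, with no array out of place. WARS1 and MARS1 had the same order of group means, and their neighbouring groups did not overlap, narrowly so for MARS1 between HL-60 with diclofenac and THP-1 with DMSO. For NARS1 and CARS1 the order was the reverse by line, with all THP-1 arrays below all HL-60 arrays. SARS1 and NARS1, both of class II, thus differed between the lines in opposite directions.

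**Figure D3:**
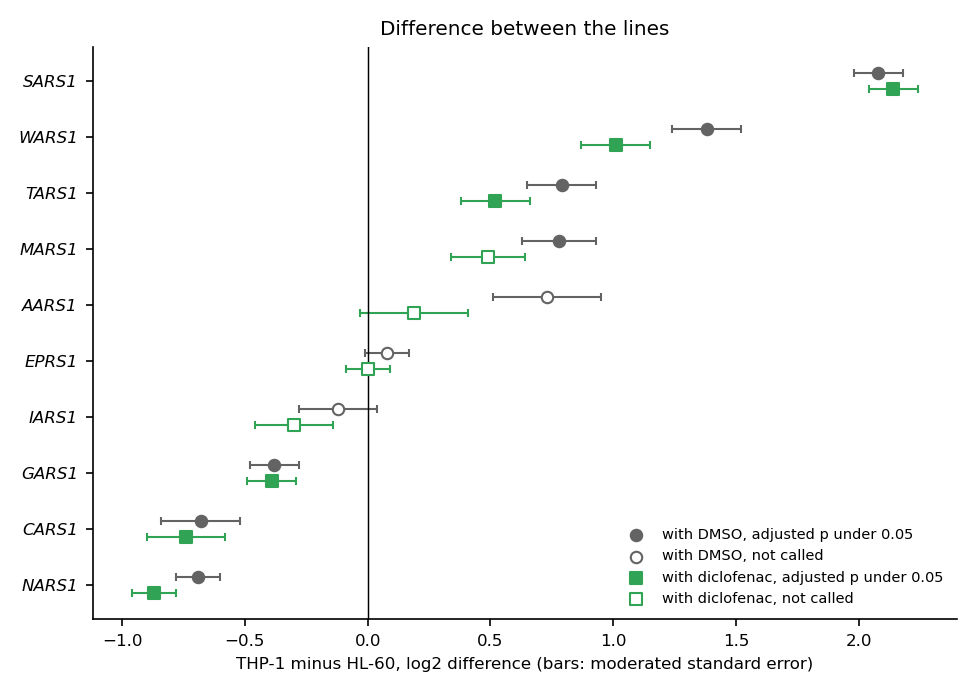
Difference between THP-1 and HL-60 (log2 scale, horizontal axis) for each synthetase with DMSO (circles) and with diclofenac (squares), with bars of 1 moderated standard error and filled symbols for an adjusted p under 0.05. SARS1 lies farthest to the right at 2.08 and 2.14 and NARS1 farthest to the left at -0.69 and -0.87.

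Other genes of tRNA charging were then set beside the 10, from lists chosen with earlier results of these data known. No gene of any of these lists passed the adjusted threshold for the treatment in either line. Of the other cytosolic synthetases, 8 of 10 had a named probe set, and 6 of 8 were above 0 in HL-60, with a median of 0.19. In THP-1 3 of 8 were above 0, with a median of -0.05, and without the array that stood apart 1 of 8, with a median of -0.14. YARS1, the tyrosyl enzyme, read 2388.3 and 2637.9 with DMSO and 3529.4 and 3699.5 with diclofenac in HL-60, a difference of 0.46 ± 0.09, and differed by -0.10 ± 0.09 in THP-1. RARS1, the arginyl enzyme, gave 0.32 ± 0.24 in both lines, and 0.56 in THP-1 without that array. QARS1, the glutaminyl enzyme, lay below 0 in both, at -0.12 ± 0.10 and -0.25 ± 0.10, and VARS1, the valyl enzyme, gave 0.19 ± 0.21 and 0.10 ± 0.21, the latter -0.21 without that array. The complex scaffold AIMP1, 1 of 3 scaffold genes measured, gave 0.15 ± 0.13 and -0.10 ± 0.13, the latter 0.04 without it.

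Of 17 mitochondrial synthetases 11 had a named probe set, and 9 of 11 were above 0 in HL-60, with a median of 0.15. In THP-1 6 of 11 were, with a median of 0.29 that became -0.18 without the array that stood apart. HARS2 gave 0.27 ± 0.33 and 0.36 ± 0.33, and FARS2 -0.35 ± 0.21 and -0.16 ± 0.21. Both THP-1 values turned sign without that array, to -0.11 and 0.03. LARS2 and CARS2 lay at 0.06 and -0.04 in HL-60. Translation factors were centred near 0, with 12 of 22 above 0 in HL-60 (median 0.05) and 6 of 22 in THP-1 (median -0.08, or -0.04 without the array that stood apart). EIF4A2, an initiation factor helicase, gave 0.32 ± 0.10 and 0.18 ± 0.10, and EIF5A, which relieves stalled ribosomes, -0.08 and -0.31. EIF2B4 and EIF2B5, subunits of the exchange factor that recharges eIF2, gave -0.08 and -0.01 in HL-60 and -0.42 and -0.45 in THP-1, the latter 2 becoming -0.03 and -0.24 without the array that stood apart. Of the genes of tRNA processing and modification, 8 of 15 were above 0 in each line, with medians of 0.03 and 0.02, and in THP-1 without the array that stood apart 3 of 15 were, with a median of -0.18. There, PUS1 gave 0.55 ± 0.23 in HL-60, and the RNase P subunits POP7 and RPP40 and the ligase RTCB lay between -0.22 and -0.43 in both lines. Without the array that stood apart PUS1 gave -0.16 in THP-1, and RPP40, RTCB and POP7 gave -0.18, -0.27 and -0.33.

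In the integrated stress response list 18 of 20 genes were measured. 12 of 18 were above 0 in HL-60 (median 0.28) and 13 of 18 in THP-1 (median 0.19). At an unadjusted limma p under 0.05, 6 and 5 of them were higher, beside 2.52% and 6.21% of all genes. Of the 22 translation factors, 5 were higher at that threshold in HL-60 and 0 in THP-1. ATF4 read 3148.1 and 3164.8 with DMSO and 4981.5 and 5963.8 with diclofenac in HL-60, a difference of 0.71 ± 0.13, and differed by 0.13 ± 0.13 in THP-1, or 0.34 without the array that stood apart. ASNS, asparagine synthetase and an ATF4 target, gave 1.58 ± 0.35 and 1.61 ± 0.35, the latter 0.98 without it. TRIB3, a pseudokinase induced by ATF4, gave 0.71 ± 0.20 and 0.62 ± 0.20, and ATF3 0.17 ± 0.35 and 0.69 ± 0.35. Without that array TRIB3 and ATF3 in THP-1 were at 0.74 and 1, and the list's median was 0.31. EIF2AK4 and SESN2 had no named probe set and were not analysed here. Of the interferon-gamma response genes, set beside WARS1, 13 of 15 were measured and 5 of these lay above background on all arrays. In HL-60 7 of 13 were above 0 (median 0.07) and in THP-1 10 of 13 (median 0.17), or 12 of 13 (median 0.22) without the array that stood apart. PSMB8, an immunoproteasome subunit, gave 0.39 ± 0.11 in HL-60 and 0.06 ± 0.11 in THP-1. PSMB9 gave 0.25 ± 0.14 and 0.17 ± 0.14, and TAP1 0.12 ± 0.16 and 0.27 ± 0.16. IRF1, an interferon-induced transcription factor, gave -0.02 ± 0.23 and 0.11 ± 0.23. Without the array that stood apart, PSMB8, PSMB9, TAP1 and IRF1 in THP-1 were at 0.14, 0.26, 0.2 and 0.

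**Figure D4:**
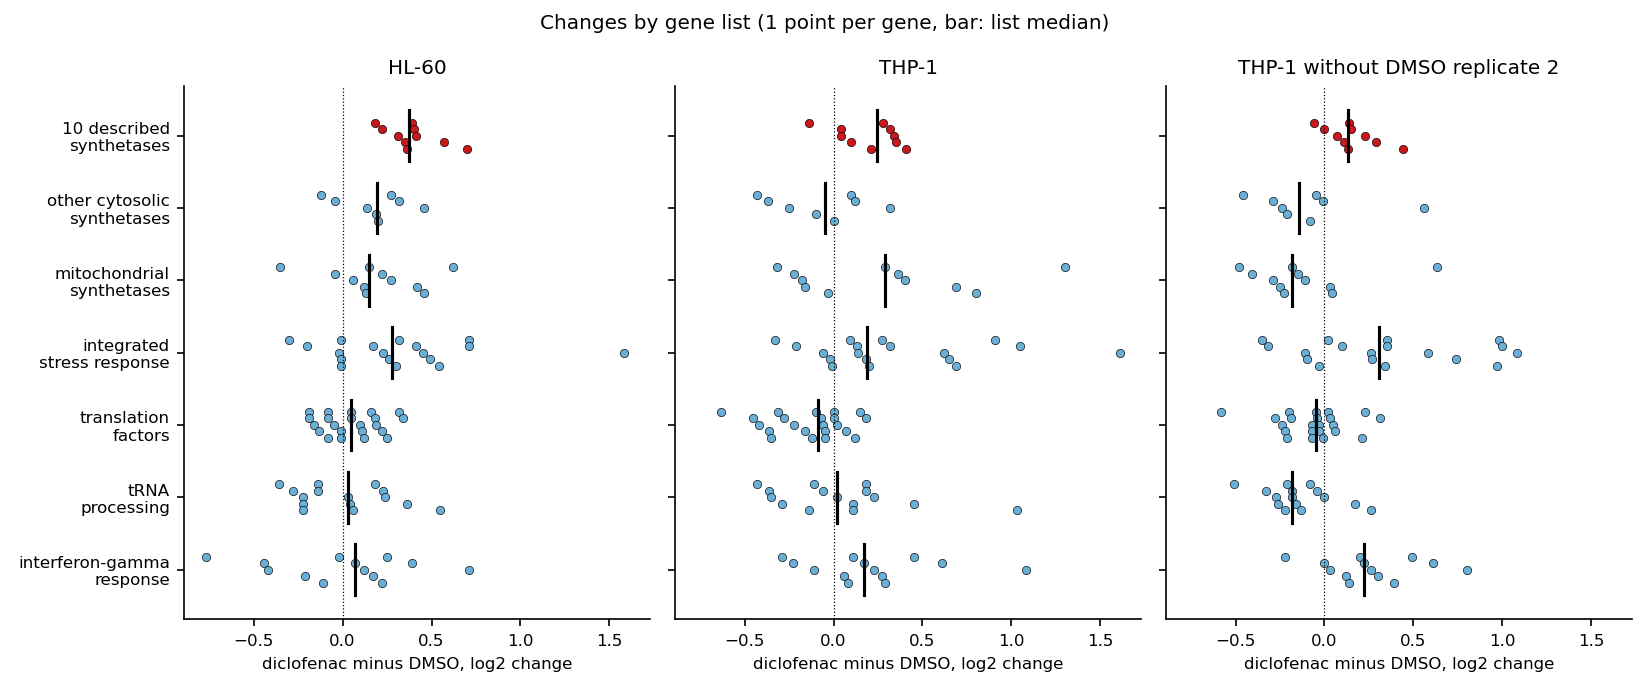
Difference between diclofenac and DMSO (log2 scale, horizontal axis) for each gene of the 10 described synthetases (red) and of 6 other lists (blue), in HL-60, in THP-1 and in THP-1 without DMSO replicate 2, with a bar at each list's median. In HL-60 the red points all lie above 0 with a median of 0.37, beside medians of 0.05 for translation factors and 0.03 for tRNA processing genes.

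The summed intensity of the monocyte markers was 447.9 to 529.2 with DMSO and 627.9 to 648.8 with diclofenac in HL-60, and in THP-1 606.4 and 1144.1 with DMSO and 1062.4 to 1165.8 with diclofenac. CD14 read 55.6 and 45.2 with DMSO and 332.9 and 310.5 with diclofenac in THP-1. In HL-60 it was 28.9 or lower, below background on every array. Of the other monocyte markers, CD68 and CD163 also read higher on both diclofenac arrays of THP-1. CSF1R, ITGAM and FCGR1A did not, with values there between or below their DMSO values. For ITGAM and FCGR1A this rested on the second DMSO array, the one that stood apart, at 306.4 and 254.4. Against the first DMSO array both diclofenac arrays were higher. ITGAM read 254.8 and 213.7 against 142.2, and FCGR1A 56.4 and 82.2 against 46.6. On the second DMSO array of THP-1, CD14, CD68 and CD163 lay below background. No marker was at 0. The part of these marker differences in the synthetase values was not tested.

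The genes whose profile over the 8 arrays was most like the mean of the 10, among 5853 genes above background on all arrays, were TAF10 and ENOPH1, each at a root mean square distance of 0.077 on the centred log2 scale. PLPBP, PIGT, BCAS2, USP16, ACTR10, COXFA4, NEK7 and STOML2 followed, up to 0.092. This ranking depended on the array that stood apart: without it TAF10 was at rank 4 and the other 9 at ranks 17 to 39. The members themselves lay from 0.166 for EPRS1 to 0.91 for SARS1 from their own mean. All were beyond the 10 genes named, which says little because those were picked as the closest. Of the 5853 genes, 4.1% lay closer to that mean than EPRS1, 9.1% closer than MARS1, 77.5% closer than CARS1 and 96.5% closer than SARS1.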

How the data were processed

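The deposited table holds intensity values of 22277 probe sets on 8 arrays, scaled by the authors to a common trimmed mean of 500.1 to 500.2 (from the values). The software that made them is not given in the sources used here. Left out were 62 control probe sets. The remaining 22215 were taken to log2(intensity + 50) and quantile normalized, because array medians ranged over more than 0.5 log2 units. limma 3.58.1 (R 4.3.3) fitted 4 group means with an intensity trend on all 8 arrays, leaving 4 residual degrees of freedom, with Benjamini-Hochberg adjustment across every tested probe set. The fit was tested on simulated data. Genes were named from the platform annotation. Of the probe sets, 19064 had 1 symbol, 1043 several and 2108 were unlisted, and 364 of those with several were named through RefSeq accessions. A gene is represented by its brightest probe set, with probe sets ending in x_at taken where the gene had no other. Genes were named as follows: all members, and of each other list up to 4 with the largest average change among those above background throughout, plus ATF4 and EIF2AK4. The fit has no block, since the labels name no pairing beyond replicate numbers. Deviations of same-numbered arrays correlated at -0.00 for HL-60 and -0.01 for THP-1. With 2 arrays per group this cannot show whether the arrays were paired. Members and lists were chosen with earlier results of these data known. Alternatives covered scaling, offset, dim probe sets, trend, block, single-line fits, probe set averaging and each array left out. The number of arrays limits the precision. Figures were drawn with matplotlib 3.10.9.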

Additional observations from a re-analysis of the deposited data

Results flagged for a closer look

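A second EPRS1 probe set, 200841_s_at, was singled out because its arrays moved in opposite directions in the lines. In HL-60 it read 265.2 and 336 with DMSO and 456.1 and 361.5 with diclofenac, both diclofenac arrays being higher. In THP-1 it read 434.8 and 506.9 with DMSO and 351.5 and 347.4 with diclofenac, both diclofenac arrays being lower. The differences were 0.44 ± 0.22 and -0.26 ± 0.22. The test of the difference between the lines gave -0.7 ± 0.32 and did not pass (limma adjusted p = 0.73). The representative EPRS1 probe set and the remaining one, 200843_s_at, did not show this pattern on all 8 arrays, at 0.10 and 0.07 in THP-1. When the array that stood apart was left out, 200843_s_at gave -0.09 in THP-1 beside 0.29 in HL-60, a difference of -0.38 (limma adjusted p = 0.40), and the representative stayed above 0 at 0.07. With 2 arrays per group, no gene-by-gene search for outlying arrays within a group was made. The array that stood apart was set apart by its background and its share of probe sets above background.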

How the results depend on the processing

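In HL-60 all 170 single-gene values under the alternatives kept their sign, and no alternative called a member. Many of these signs were fixed in advance. Leaving out dim probe sets, the trend or a THP-1 array, adding the block, or fitting HL-60 alone cannot change the HL-60 differences. The signs were free to turn only with another offset or scaling, averaged probe sets or an HL-60 array left out. Leaving out 1 array after normalization gave 0 to 0 members called in HL-60, 0 to 5 in THP-1, 0 to 6 for the average, 0 to 0 for the difference between lines, 4 to 9 between lines with DMSO and 3 to 8 with diclofenac. The 5 and the 6 arose without THP-1 DMSO replicate 1, where replicate 2, the array that stood apart, is alone in its group and is assumed to vary like the others; the 5 were CARS1, GARS1, IARS1, MARS1 and SARS1. Over all probe sets these ranges were 0 to 11 in HL-60 (main value 1), 0 to 6898 in THP-1 (30), 1 to 4632 for the average (22), 0 to 4028 for the difference (1), 1713 to 9099 with DMSO (3396) and 1263 to 5097 with diclofenac (2892). On the deposited scale the counts were 2 in HL-60, 51 in THP-1 and 2 for the difference. With median centring they were 0 for those and the average, 1145 and 1028 between the lines, and 1 member was called between the lines with either treatment. Leaving out the dimmest 40% gave 5 and 53, and the lines fitted alone 3 and 0. Without the intensity trend 0 were called for each treatment contrast and 3 members between the lines with diclofenac. The replicate block gave 10 for the average and 0 for the difference, called no member for the treatment, and the numbers are not a known pairing.

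Signs turned for AARS1 in THP-1 (0 as deposited, 0.36 with median centring), EPRS1 in THP-1 (-0.03 with probe sets averaged) and EPRS1 between the lines (with DMSO -0.04 as deposited and -0.27 with centring, with diclofenac 0 as deposited). For the difference of effects they turned as deposited for CARS1 (0), GARS1 (0.06) and EPRS1 (0.04), with centring for CARS1 (0.19), GARS1 (0.25), IARS1 (0.06), NARS1 (0.08), EPRS1 (0.23) and TARS1 (0.05), and with averaged probe sets for CARS1 (0.23) and WARS1 (0.13). With 1 array left out, THP-1 values ran from -0.43 to 0.15 for AARS1, -0.06 to 0.47 for IARS1, 0 to 0.08 for NARS1 and -0.02 to 0.11 for TARS1. The AARS1 average ran from -0.01 to 0.27, IARS1 between lines with DMSO from -0.38 to 0.14 and EPRS1 with diclofenac from -0.06 to 0.05. The difference of effects ran from -0.26 to 0.16 for CARS1, -0.12 to 0.11 for GARS1, -0.44 to 0.08 for IARS1 and -0.04 to 0.15 for SARS1. The causes were not tested.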
